A study of Mus musculus with 24 samples.

Results

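The interferon-inducible GTPases described here are 10 genes of the guanylate-binding protein (GBP) and immunity-related GTPase (IRG) families: Gbp2, Gbp3, Gbp5, Gbp7, Irgm1, Irgm2, Igtp, Iigp1, Ifi47 and Tgtp2. They were chosen by gene symbol, and all 10 were found among the 55291 gene names counted and among the 16258 genes that passed the filter on low counts. RNA was sequenced from mouse pulmonary fibroblasts of 2 genotypes, wild type (WT) and TLR4-/-, the latter lacking by label the receptor Toll-like receptor 4. The methods place the mice of both genotypes on the C57BL/6 background. In both genotypes, 4 treatments were compared after 24 h: saline alone (PBS), recombinant mouse cold-inducible RNA-binding protein (rmCIRP) at 1 μg/ml, recombinant mouse transforming growth factor-β1 (rmTGF-β1) at 2 ng/ml, and the pair together, which makes 8 conditions of 3 libraries. CIRP is an RNA-binding protein that, once outside the cell, acts as a danger signal through TLR4, and TGF-β1 drives fibroblasts to make matrix. Cells came from mice 4 to 8 weeks old, pooled from 3 to 4 lungs, and were used at passages 3 to 6. Neither the labels nor the methods say that the 3 libraries of a condition came from separate pools or animals, so the p-values measure the spread between these libraries, which may be technical.

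GBPs and IRG proteins are GTPases that cells make in large amounts after interferon. Both families act inside the cell, where they assemble on the membranes of vacuoles that hold bacteria or parasites, and several GBPs also help the inflammasome respond to bacterial lipopolysaccharide. Interferon receptors signal through Janus kinases to transcription factors that bind interferon-stimulated response elements (ISRE) or gamma-activated sites (GAS) in the promoters of their target genes. TLR4 can switch on interferon-β through its adaptor TRIF, which is a known route from TLR4 to these genes. Among the IRG genes, Irgm1, Irgm2 and Igtp (also called Irgm3) encode regulators that stay on the membranes of the cell's own organelles, whereas Iigp1 (Irga6), Ifi47 (Irgd) and Tgtp2 (Irgb6) encode effectors that load onto pathogen vacuoles.

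In the GENCODE M21 annotation of GRCm38, to which the genes were matched by symbol, the GBP members lie together on chromosome 3, with Gbp5 at chr3:142493978-142522344, Gbp7 at chr3:142530342-142550149, Gbp3 at chr3:142560026-142573209 and Gbp2 at chr3:142620602-142638008, all on the plus strand. On chromosome 11, Irgm1 lies at chr11:48861968-48871683 and Tgtp2 at chr11:49057194-49064206 on the minus strand. Ifi47 lies at chr11:49076587-49096974, Igtp at chr11:58199556-58207591 and Irgm2 at chr11:58199618-58222782 on the plus strand. Some reads cannot be given to 1 gene. Of the stretches of 50 bases in Tgtp2 exons, 86.6% also occur in another gene, nearly all in its near-copy Tgtp1, so the count of Tgtp2 is uncertain and is given with the sum of both in the alternatives. The same share was 12.7% in Gbp7, 11.8% in Igtp and 7.77% in Irgm2, and between 0.31% and 3.75% in the other 6 members. Igtp and Irgm2 also overlap on the same strand.

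RefSeq windows from 250 bases before to 50 bases after the start (build GRCm38.p6) were used for 9 of the 10 members, with Iigp1 left out. Several RefSeq starts differ from the ends of the GENCODE spans given above. They were searched on both strands for an ISRE-like motif (GAAA, any 2 bases, GAAA), a GAS-like motif (TTC, any 3 bases, GAA) and an NF-κB-like motif (GGGA, any 2 bases, TTCC). The ISRE-like motif was in 8 of 9 members, all but Ifi47, against 3.44% of 32851 windows of the same length for all genes. It began 24 to 70 bases before the start in 7 of these members and 165 bases before it in Gbp5. The 4 GBP genes carried it as its reverse complement and the 4 IRG genes in the forward direction. In Gbp3 and Irgm1, a pair of matches overlapped. The GAS-like motif was in 5 of 9 members (Gbp5, Gbp7, Irgm2, Igtp and Tgtp2) against 8.3% of windows, and in the 3 IRG genes that hold it, it began 11 bases before the ISRE-like match without overlapping it. The NF-κB-like motif was in 2 of 9 (Gbp2 and Gbp5) against 1.47%. Counted by window, as the shares of all windows are, 8, 5 and 2 of the members' 10 windows held the 3 motifs, in that order. These matches describe letters and are not measured binding sites. The stretches around the ISRE-like matches are shown because they are what the members share in sequence, with the matched letters in capitals, read on the strand of the gene.
Gbp2, chr3:142620579-142620638, plus strand: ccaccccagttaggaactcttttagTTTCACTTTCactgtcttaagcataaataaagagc
Gbp3, chr3:142559974-142560039, plus strand: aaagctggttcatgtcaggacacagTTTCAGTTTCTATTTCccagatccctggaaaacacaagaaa
Gbp5, chr3:142496744-142496803, plus strand: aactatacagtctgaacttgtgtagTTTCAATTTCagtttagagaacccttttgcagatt
Gbp7, chr3:142530258-142530317, plus strand: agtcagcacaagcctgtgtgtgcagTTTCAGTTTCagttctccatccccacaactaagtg
Irgm1, chr11:48871421-48871475, minus strand: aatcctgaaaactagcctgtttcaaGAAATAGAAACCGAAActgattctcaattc
Irgm2, chr11:58214888-58214947, plus strand: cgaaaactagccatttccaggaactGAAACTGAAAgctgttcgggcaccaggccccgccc
Igtp, chr11:58199497-58199555, plus strand: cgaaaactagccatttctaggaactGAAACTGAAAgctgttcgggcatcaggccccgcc
Tgtp2, chr11:49064248-49064307, minus strand: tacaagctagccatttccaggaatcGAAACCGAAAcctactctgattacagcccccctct

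The stretches of Irgm2 and Igtp are nearly the same around the match, and their whole windows were 72.8% identical in a pairwise alignment. That of Tgtp2 shares the letters before the match with them, including the GAS-like motif.

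**Figure D1:**
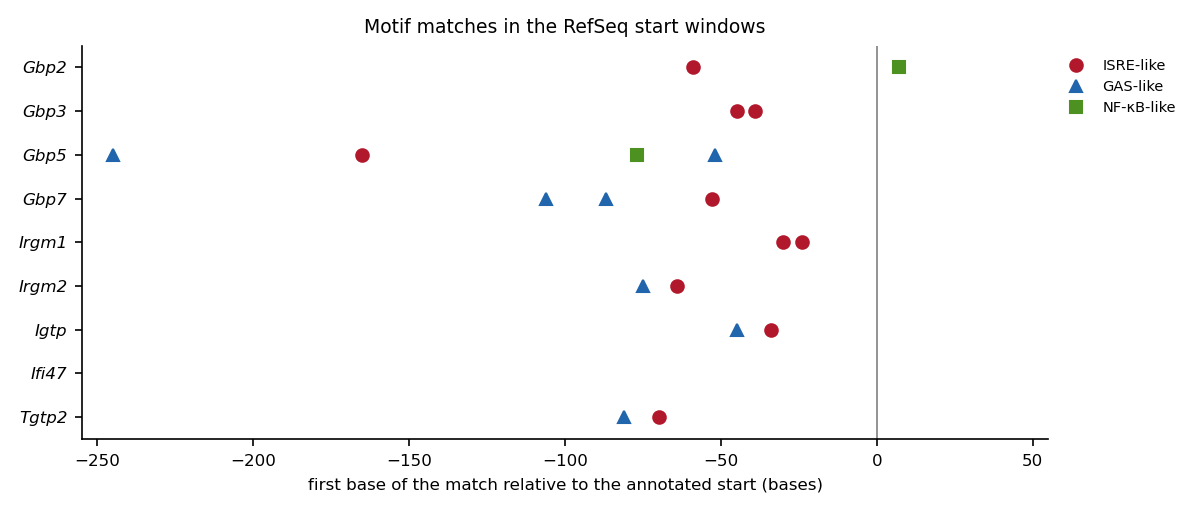
Places of motif matches in the RefSeq start windows of 9 members, with distance from the annotated start in bases on the x axis and genes on the y axis (circles, ISRE-like; triangles, GAS-like; squares, NF-κB-like). Circles sit 24 to 70 bases before the start in 7 genes and 165 bases before it in Gbp5, and Ifi47 has no match to any of the 3.

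Library totals on genes lay between 29853346 and 39664606 reads. Below, a normalized count is the raw count over the DESeq2 size factor, a fold change is edgeR's log2 estimate with its standard error (SE), and a gene was called at an adjusted p under 0.1. The Tlr4 count does not bear out the genotype label: with PBS it ran from 718 to 802 normalized counts in WT and from 891 to 927 under the TLR4-/- label, and the files do not show which part of the gene the reads fall on. These libraries are therefore called labelled TLR4-/- throughout. All 10 fibroblast markers had reads in every condition. The 13 macrophage markers were also all present, with a summed normalized count of 91788 to 99930 in WT libraries with PBS, 77734 to 82463 with rmCIRP, and 351187 to 401744 in labelled TLR4-/- libraries with PBS. In T and natural killer cell markers the sum was at most 53.6 in any library. In bulk RNA, fewer cells of a type and less RNA per cell cannot be told apart. Library 3 labelled TLR4-/- with both factors stood apart from library 1 of its condition, with a chi-square per degree of freedom of 50.6 against 2.67 for the closest pair of replicates.

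With PBS, the 10 transcripts were present at very unequal levels in the WT cultures. These libraries also held macrophage markers, so the levels cannot be assigned to fibroblasts alone. Per kilobase of exon, Irgm1 was at 11.4 ± 0.149 CPM (read counts scaled to library size; SD, n = 3) and Gbp2 at 9.19 ± 1.14, and together they made up most of the family's RNA, 40.6% ± 2.39 and 32.7% ± 2.58 of the summed level. Ifi47 followed at 2.64 ± 0.286, Irgm2 at 1.88 ± 0.242 and Igtp at 1.24 ± 0.134 CPM per kilobase. Gbp3, Iigp1 and Gbp7 were below 1, at 0.767 ± 0.0694, 0.484 ± 0.103 and 0.276 ± 0.0277. The lowest were Tgtp2 at 0.125 ± 0.0161 and Gbp5 at 0.0544 ± 0.0301, each with 18 raw counts or fewer in any WT library with PBS. Gbp5 thus went from the least abundant of the 10 to a well measured transcript in the comparisons that follow. The level of Tgtp2 and its rank are uncertain. Reads that also fit Tgtp1 may be missing from its count, while its exon length is taken in full.

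All 10 members were higher with rmCIRP than with PBS in WT cells, and the 3 treated libraries lay above the 3 control libraries for each of them. Of all genes tested, 19.8% were called higher in this comparison, and 23.9% had treated libraries wholly above the controls. The members' median log2 fold change was 4.61, with a range from 2.16 (Irgm1) to 6.82 (Gbp5), against a median of -0.02 for all genes. Every member was among the 259 genes with the largest estimates.

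Among the GBPs, Gbp5, which promotes assembly of the NLRP3 inflammasome, had the largest change. Controls had 4.81, 17.97 and 13.53 normalized counts, and libraries with rmCIRP had 1335, 1161 and 1634. The controls were few reads and spread 3.73-fold among themselves, and every treated library was above 1000. Gbp5 rose 113-fold, or by 6.82 ± 0.25 on the log2 scale (SE; edgeR adjusted p = 1.63e-15). Gbp3, a family member that coats pathogen vacuoles, was at 76.0, 90.9 and 85.3 with PBS and at 3670, 2927 and 4307 with rmCIRP. It rose 43.1-fold, a log2 change of 5.43 ± 0.28 (adjusted p = 7.43e-13). Gbp7, which takes part in assembling the phagosome oxidase, was at 46.2, 54.9 and 55.2 with PBS and 1359, 1127 and 1352 with rmCIRP. The rise was 24.5-fold, with a log2 change of 4.61 ± 0.15, the smallest error of the GBPs. Gbp2, needed in mice for control of vacuolar parasites and for sensing of bacterial lipopolysaccharide in the cytosol, started highest of the GBPs, at 669, 850 and 810, and reached 7554, 6164 and 8639. It rose 9.57-fold (log2 3.26 ± 0.18), the smallest fold of the 4 GBPs, and per kilobase it was the most abundant of the 10 in treated WT cells, at 87.9 ± 14.7 CPM.

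Among the regulatory IRG genes, the rise ran from 4.48-fold to 24.3-fold. Irgm1, which also acts in autophagy, was at 2252, 2216 and 2183 with PBS and at 10088, 8970 and 10863 with rmCIRP. Its rise (log2 2.16 ± 0.15, adjusted p = 1.03e-10) was the smallest of the 10. Irgm2 went from 224, 267 and 208 to 3316, 2892 and 3464, or 13.8-fold (log2 3.78 ± 0.25). Igtp went from 76.0, 93.8 and 82.2 to 2059, 1631 and 2454, or 24.3-fold (log2 4.601 ± 0.212). For both, no treated library came near a control. The effector genes spanned nearly the whole range. Iigp1, which lies on chromosome 18, had counts of 72.2, 111 and 101 with PBS and 3436, 2400 and 4535 with rmCIRP, a 36.5-fold rise (log2 5.19 ± 0.40) with treated libraries that differed 1.89-fold. Tgtp2 counts went from 10.6, 12.98 and 13.53 to 660, 453 and 858 (52.6-fold, log2 5.72 ± 0.45), and its treated libraries differed 1.90-fold. Ifi47 rose 5-fold, from 231, 192 and 234 to 1121, 931 and 1247 (log2 2.32 ± 0.14). Library 2 with rmCIRP was the lowest of the 3 treated WT libraries for all 10 members, and library 3 the highest for 9 of them.

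**Figure D2:**
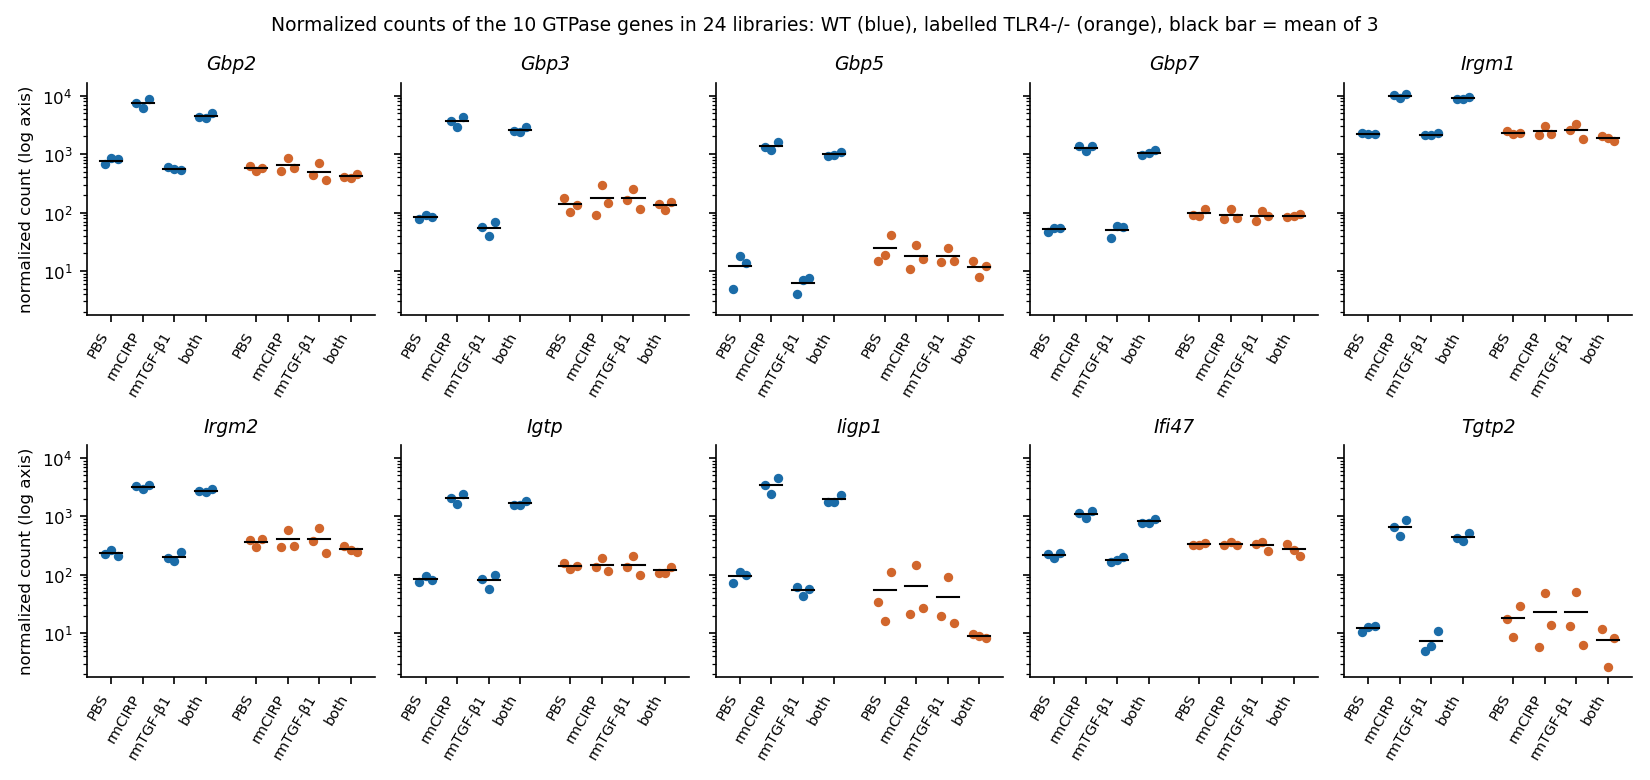
Normalized counts (y axis, log scale) of the 10 members in each of 24 libraries, with the 4 treatments on the x axis for WT (blue) and labelled TLR4-/- (orange), 1 point for each library and a bar at the mean of 3. In every panel the 6 WT libraries with rmCIRP lie above all other libraries, and the orange points lie below them in all 10 panels.

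With these unequal changes, the make-up of the family changed. In WT cells the summed level of the 10 transcripts was 28.0 ± 1.34 CPM per kilobase without and 278 ± 45.3 with rmCIRP. The share of Irgm1 in that sum went from 40.6% ± 2.39 to 18.4% ± 1.28 and that of Ifi47 from 9.45% ± 1.35 to 4.75% ± 0.0902. Gbp3 went from 2.73% ± 0.119 to 11.8% ± 0.339, Igtp from 4.41% ± 0.288 to 10.8% ± 0.429 and Iigp1 from 1.72% ± 0.293 to 6.23% ± 0.951. Gbp2 kept a similar share, 32.7% ± 2.58 against 31.6% ± 0.145. In treated WT cells the order per kilobase was Gbp2, Irgm1 (50.9 ± 4.89 CPM), Gbp3 (33.0 ± 6.30), Igtp (30.05 ± 6.06), Irgm2 (25.9 ± 2.40), Iigp1 (17.6 ± 5.45), Ifi47 (13.2 ± 1.91), Gbp7 (6.76 ± 0.703), Tgtp2 (6.64 ± 2.05) and Gbp5 (6.15 ± 1.07). Of these neighbours, Gbp3, Igtp and Irgm2 did not differ beyond their spread, nor did Iigp1 and Ifi47, nor the last 3. These shares describe the libraries and were not tested, and the level of Tgtp2 is uncertain for the reason given above.

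**Figure D3:**
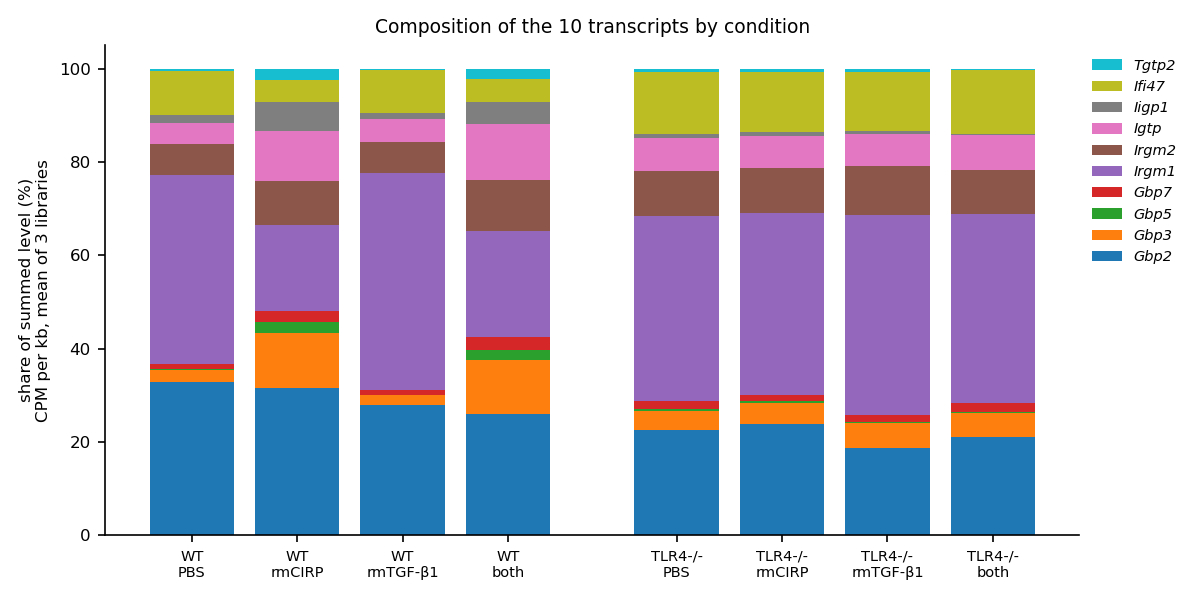
Mean share (y axis, percent, 3 libraries each) of each member in the summed CPM per kilobase of the 10 transcripts, by condition (x axis). Irgm1 takes 40.6% of the sum in WT cells with PBS and 18.4% with rmCIRP, and between 39.0% and 42.9% in the 4 labelled TLR4-/- conditions.

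rmCIRP was also compared against rmTGF-β1 as the baseline, to ask whether the response holds in the presence of the growth factor. With both factors, all 10 members were again higher than with rmTGF-β1 alone in WT cells, with no overlap of libraries, against 20.5% of all genes called higher and 24.9% wholly above. The median log2 fold change was 4.35, from 2.07 for Irgm1 (4.21-fold) to 7.27 for Gbp5 (154-fold). Gbp5 was at 4.03, 7.0 and 7.61 normalized counts with rmTGF-β1 and at 936, 959 and 1092 with both. Iigp1 was at 60.5, 44.0 and 57.5 and then at 1770, 1732 and 2347. Gbp2, the most abundant, was at 603, 549 and 527 and then at 4249, 4099 and 5113. In each of these 3 genes the groups were wholly separate. For no member did the response to rmCIRP differ between the baselines by the interaction test, where 0 of 10 were called, with adjusted p from 0.978 to 1, and 0.0492% of all genes were. No member reached an unadjusted p under 0.05 there, against 5.64% of all genes, and DESeq2 also called none. The 95% intervals of the interaction were wide for Tgtp2, from -1.73 to 1.99 on the log2 scale, and narrower for Irgm1, from -0.49 to 0.31.

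rmTGF-β1 alone gave 0 called members in WT cells, against 12.4% of all genes called, and DESeq2 also called none. All 10 estimates were negative, with a median of -0.37. An unadjusted p under 0.05 was reached by 1 member, Gbp2, and by 22% of all genes. Gbp2 was at 669, 850 and 810 with PBS and at 603, 549 and 527 with rmTGF-β1, a log2 change of -0.48 ± 0.19 (adjusted p = 0.145). Its groups did not overlap, nor did those of Gbp3 and Iigp1, which were lower by -0.59 ± 0.44 and -0.80 ± 0.62, against 15.6% of all genes wholly below. These 3 members were called lower when the model was fitted to the 6 libraries compared alone, with adjusted p of 0.00234, 0.0512 and 0.012 for Gbp2, Gbp3 and Iigp1. That fit called 1354 of all genes lower, against 1081 with all libraries fitted. Gbp7, Irgm1 and Igtp had estimates between -0.02 and -0.05.

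When rmTGF-β1 was added to rmCIRP, 5 of the 10 members were lower than with rmCIRP alone, against 10.5% of all genes called lower. Gbp2 changed the most clearly, from 7554, 6164 and 8639 normalized counts to 4249, 4099 and 5113, or to 60.2% of the mean with rmCIRP alone (log2 -0.74 ± 0.16, adjusted p = 0.0026). Iigp1 went from 3436, 2400 and 4535 to 1770, 1732 and 2347 (log2 -0.83 ± 0.29, adjusted p = 0.0589). Both sets of libraries were separate. Ifi47, Gbp5 and Gbp7 were lower by smaller amounts, with log2 changes of -0.42 ± 0.12, -0.47 ± 0.14 and -0.28 ± 0.10. The other 5 also had negative estimates without passing the test, from -0.13 ± 0.14 for Irgm1 to -0.57 ± 0.27 for Tgtp2. Libraries of both conditions overlapped for 5 of the 10 members, and 18.3% of all genes were wholly below. The number called rests on single libraries: it was 1 without WT library 3 with rmCIRP, 3 without library 1 with rmCIRP or without library 1 or 2 with both factors, and 8 without library 2 with rmCIRP. DESeq2 called 2 of them, Gbp2 and Ifi47, and 1424 of all genes lower. In the order of the 8 condition means, WT with rmCIRP was the highest and WT with both the second for 10 of 10 members, and the second did not overlap the third for any.

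**Figure D4:**
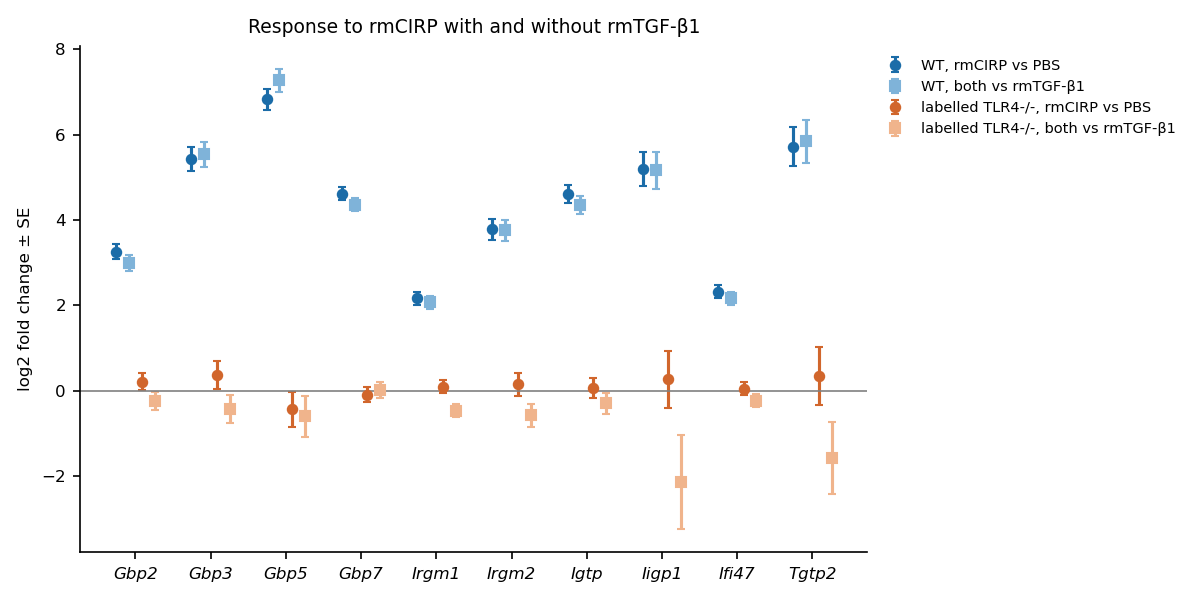
Log2 fold change ± SE (y axis) of each member (x axis) for rmCIRP against PBS (circles) and for both factors against rmTGF-β1 (squares), in WT (blue) and labelled TLR4-/- libraries (orange), 3 libraries a condition. WT estimates run from 2.07 to 7.27 and those of the labelled TLR4-/- libraries from -2.14 to 0.36.

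In the libraries labelled TLR4-/-, rmCIRP gave 0 called members, and 0 of all 16258 genes by edgeR, or 0%, with 1136 genes but no member at an unadjusted p under 0.05. DESeq2 called 33 genes and no member. The members' estimates had a median of 0.12 and ran from -0.44 ± 0.41 for Gbp5 to 0.36 ± 0.32 for Gbp3. Gbp5 was at 14.8, 19.1 and 40.8 normalized counts with PBS and at 10.8, 27.8 and 15.7 with rmCIRP. Gbp2 was at 632, 511 and 567 with PBS and at 516, 857 and 589 with rmCIRP. Irgm1 was at 2508, 2170 and 2273 and then at 2111, 3077 and 2197. For each of the 10, libraries of both conditions overlapped, while 5.81% of all genes lay wholly above and 7.91% wholly below. The 95% intervals of the log2 change were from -0.20 to 0.39 for Irgm1 and from -0.24 to 0.33 for Ifi47, but from -1.04 to 1.58 for Iigp1 and from -1.002 to 1.68 for Tgtp2, so a change of about that size in these 2 effectors was not detectable here.

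The response to rmCIRP differed between the genotypes for all 10 members. Each changed less under the TLR4-/- label than in WT, and 14.3% of all genes were called in that direction. The difference had a median of -4.62 and ran from -2.07 ± 0.21 for Irgm1 to -7.26 ± 0.57 for Gbp5, with adjusted p of at most 0.000245. With rmTGF-β1 as the baseline, 10 of 10 were again called, against 10.4% of genes, with a median of -4.49. After rmCIRP, the mean level in the labelled TLR4-/- libraries was 1.32% of that in WT for Gbp5, 1.89% for Iigp1, 8.78% for Gbp2 and 31.0% for Ifi47. The lowest of the 6 WT libraries with rmCIRP was above the highest of all 12 labelled TLR4-/- libraries for each member, by 22.9-fold for Gbp5 (936 against 40.8 normalized counts) and by 2.09-fold for Ifi47 (772 against 370.3). For Iigp1 the difference was -4.92 ± 0.86 with all libraries, -6.40 without labelled TLR4-/- library 2 with rmCIRP and -3.82 without library 3 with PBS. For Tgtp2 it was -5.38 ± 0.96, then -6.64 and -4.92. A difference between the genotypes cannot be told apart from one between pools of cells. The methods describe each group of fibroblasts as taken from pooled lungs, without giving the number of pools.

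After 24 h with PBS alone, the genotypes differed by far less. With PBS, the labelled TLR4-/- libraries had 5 members called higher than WT, against 23.2% of all genes, and 1 was called lower, against 24%. Gbp7 was at 46.2, 54.9 and 55.2 normalized counts in WT and 90.9, 88.0 and 113 in the labelled TLR4-/- libraries (log2 0.90 ± 0.19, adjusted p = 0.000696). Ifi47 was at 231, 192 and 234 and at 329, 320.0 and 343 (log2 0.59 ± 0.15, adjusted p = 0.0036). Igtp went from 76.0, 93.8 and 82.2 to 160.0, 127 and 140.4 (log2 0.76 ± 0.27, adjusted p = 0.0279). The genotypes did not overlap for 5 members that were higher (these 3, Irgm2 and Gbp3), against 25.5% of all genes, nor for the lower Gbp2, against 26.3%. Gbp5 (log2 1.05 ± 0.46, adjusted p = 0.0749) and Irgm2 (0.65 ± 0.28, adjusted p = 0.0706) were near the threshold, and so was the lower Gbp2 (-0.45 ± 0.20, adjusted p = 0.075). The call of Irgm2 was lost without library 1 or 3 of either genotype, and that of Gbp5 without WT library 1 or 3 or labelled TLR4-/- library 3, where its log2 change was 0.50. That of Gbp2 was lost without WT library 2 or 3 or labelled TLR4-/- library 2 or 3, and with DESeq2 (adjusted p = 0.121). Gbp3 was not called (0.73 ± 0.37, adjusted p = 0.126), but it was at an adjusted p of 0.00579 with only the compared libraries. Without WT library 3, 3 members in all were called. Iigp1 was not called (-0.77 ± 0.63), but it was at an adjusted p of 0.0708 and -1.87 without labelled TLR4-/- library 3. In the same comparison, 13 of 13 macrophage markers were higher under the TLR4-/- label, with a median log2 change of 2.20. Their part in the members' difference was not tested, and genotype cannot be told apart from pool of cells here either.

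rmTGF-β1 gave 0 called members in the labelled TLR4-/- libraries, against 23.9% of all genes, and DESeq2 called none. No member there had an unadjusted p under 0.05, against 30.1% of all genes. The estimates ran from -0.49 ± 0.42 for Gbp5 to 0.35 ± 0.33 for Gbp3. The test of a genotype difference in the response to rmTGF-β1 called 0 of 10, and 0.0861% of all genes, and DESeq2 called no member. In that test no member had an unadjusted p under 0.05, against 10.4% of all genes. Both factors against rmTGF-β1 also gave 0 called members, against 2.69% of genes, though 9 of 10 estimates were negative. There, 2 members, Irgm1 and Irgm2, had an unadjusted p under 0.05, against 17.9% of all genes. DESeq2 called 2 there, Irgm1 and Iigp1, both lower, with adjusted p of 0.0802 and 0.0758, and it called 353 of all genes lower. Iigp1 was at 19.9, 91.4 and 15.1 normalized counts with rmTGF-β1 and at 9.86, 8.90 and 8.24 with both, a log2 change of -2.14 ± 1.11 (adjusted p = 0.319). These libraries did not overlap, against 6.02% of genes wholly below. Tgtp2 was at 13.3, 51.0 and 6.20 and at 11.8, 2.67 and 8.24 (-1.58 ± 0.84). Both values turn on library 2 with rmTGF-β1, without which they were -0.95 and -0.38. Without library 3 with rmTGF-β1, or without library 1 with both, edgeR called 2 members lower. Of all genes, 919 and 1170 were called lower under these settings, against 183 with all libraries.

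Library 2 with rmTGF-β1 was not alone among those labelled TLR4-/-. Library 2 with rmCIRP was the highest of its 3 for 10 of 10 members, with a median of 0.80 above the mean of the other 2 libraries on the log2 CPM scale, and at most 2.54. Library 2 with rmTGF-β1 was likewise highest for 10 of 10, with a median of 0.83. Of all genes tested, 29.0% and 34.4% were highest in these 2 libraries. Library 3 with PBS was highest for 6 of 10, by at most 2.18, against 36.2% of all genes highest there. With both factors there was no such order, as library 3 was the highest of its 3 for 4 members and the lowest for 4. Iigp1 showed the spread most plainly: raw counts in libraries 1 to 3 were 35, 15 and 114 for PBS, 22, 159 and 27 for rmCIRP, 21, 86 and 17 for rmTGF-β1 alone, and 10, 10 and 8 for the pair. The last condition was thus low and even. Ifit1, another interferon-stimulated gene, had normalized counts of 145, 114 and 486 for PBS, 131, 645 and 122 for rmCIRP and 141, 536 and 61.1 for rmTGF-β1 alone, high in the same libraries. Adgre1, which encodes the macrophage marker F4/80, was at 6639, 6866 and 6948, at 6400.2, 5800.1 and 6938, and at 7239, 6661 and 7409, with no such rise. Across the 12 labelled TLR4-/- libraries, the correlation of deviations from the condition mean between pairs of members had a median of 0.79 over 45 pairs, from 0.13 to 0.97, and across the 12 WT libraries a median of 0.60. Shared shifts were not confined to the TLR4-/- label. WT library 3 with both factors was also highest for 10 of 10, with a median of 0.24, against 36.3% of all genes. These values are a description, since members share libraries and depth. The labels give no batch or date for these libraries.

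**Figure D5:**
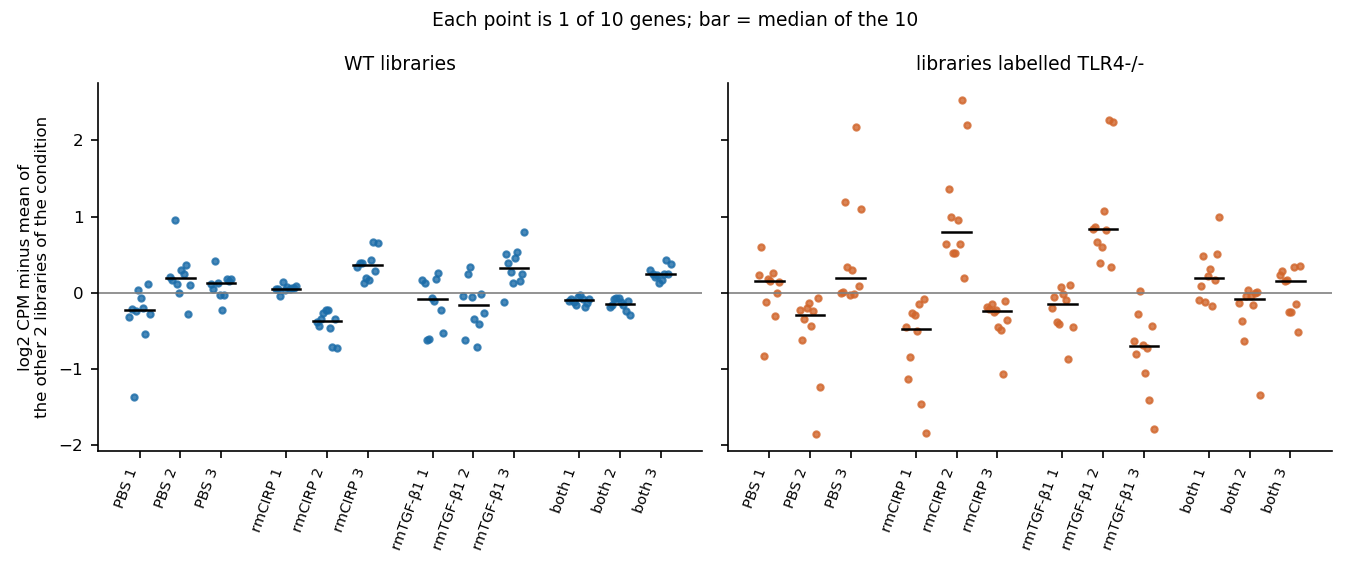
Difference in log2 CPM (y axis) between each library and the mean of the other 2 of its condition, with 1 point for each of the 10 members and a bar at their median, for 12 WT (left) and 12 labelled TLR4-/- libraries (right) along the x axis. Libraries 2 with rmCIRP and with rmTGF-β1 on the right have medians of 0.80 and 0.83, while the WT medians stay between -0.37 and 0.37.

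Other genes of the pathway were taken from lists drawn up with earlier results of these data known. Their counts, here and for the lists that follow, are a description and not a test of the lists. They stand against 19.8% of all genes called higher and 24.1% called lower with rmCIRP in WT cells. Of the 17 remaining genes of both families, 4 had too few reads to be tested, 11 were higher and 0 lower. Some of these, Gbp4 and F830016B08Rik among them, passed the filter on low counts only through the WT libraries with rmCIRP alone or with rmTGF-β1. The count of 11 is therefore a description and not a test of the list. Gbp4 was at 2 raw counts or fewer with PBS and 116 ± 42.5 normalized counts with rmCIRP, at least 5.27 higher on the log2 scale when PBS is set at 3 counts per library. F830016B08Rik, an IRG gene, was at least 6.61 higher on the same scale. Gbp6 and Gbp9 rose by 4.24 ± 0.27 and 4.51 ± 0.29, and Tgtp1, the near-copy of Tgtp2, by 5.08 ± 0.43. Irgq, an IRG-like gene that is not interferon-inducible, had an estimate of 0.06 ± 0.05 and was not called, nor was Gbp8. Of the dynamin-related and very large GTPases, Mx1, Mx2, Gvin1 and Gm4070 were higher (4 of 5), with 6.599 ± 0.352 for the antiviral Mx1, and the mitochondrial fission GTPase Dnm1l was lower by -0.08 ± 0.04. In the labelled TLR4-/- libraries with rmCIRP, 0 genes of either list were called, as were 0 of all 16258 genes tested.

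The interferon ligands themselves were hardly counted. Of 20 interferon genes listed, 0 passed the filter on low counts. Ifng had 0 reads in all 24 libraries, which allows up to 3 counts per library, and Ifnb1 had at most 3 raw counts in any library. In WT libraries 1 to 3, Ifnb1 had 1, 1 and 3 raw counts with rmCIRP and 3, 0 and 3 with both factors. It had 0, 2 and 0 in labelled TLR4-/- libraries with rmCIRP, and 0 in every library of the other conditions. A difference in ligand mRNA was therefore not tested, and reads were too few at this depth and time to measure one. Of the 9 receptor and kinase genes, 6 were higher with rmCIRP in WT cells and 1 lower, by small amounts: Ifnar2, a chain of the type I interferon receptor, rose by 0.58 ± 0.09 and Jak2 by 0.43 ± 0.05, while Ifngr1, a chain of the interferon-γ receptor, was lower by -0.10 ± 0.04. Of the 12 transcription factors and inhibitors tested, 11 were higher and 1 lower. Stat2 rose by 3.24 ± 0.20, Irf9 by 2.07 ± 0.13 and Irf7 by 5.19 ± 0.36. Irf1, a factor that drives Gbp2, rose by 1.16 ± 0.09, and Irf8, best known from macrophages and dendritic cells, fell by 0.86 on the log2 scale. The inhibitors Socs1 and Usp18 rose by 1.68 ± 0.14 and 6.20 ± 0.47.

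Further along, 7 of 10 genes that lead from TLR4 to interferon were higher, including Ly96 (0.31 ± 0.08), which encodes the TLR4 partner MD2, and Ikbke (0.81 ± 0.07), while Tlr4 was not called (-0.02 ± 0.06). All 20 other interferon-stimulated genes listed were higher, with a median of 5.46, among them Rsad2 (7.12 ± 0.42) and Cxcl10 (7.89 ± 0.45). All 6 inflammasome genes were higher, from 0.54 ± 0.13 for Aim2 to 3.06 ± 0.11 for Nlrp3. The 11 autophagy genes listed were genes of the conjugation system, which places GBP and IRG proteins on vacuoles, and Sqstm1. Of these, 3 were higher and 1 lower, with a median of 0.01. Sqstm1 rose by 0.42 ± 0.09 and Gabarap fell by 0.15. In labelled TLR4-/- libraries with rmCIRP, 0 genes of any of these lists were called, as were 0 of all 16258 genes tested. Of the macrophage markers, 4 of 13 were higher with rmCIRP in WT cells and 9 lower, with a median of -0.33. Adgre1, a marker that rose, was at 1863, 2204 and 2032 normalized counts with PBS and at 4136, 3939 and 3965 with rmCIRP. C1qa, a marker that fell, was at 1866, 2099 and 2088 with PBS and at 1443, 1308 and 1551 with rmCIRP. The part of macrophages in the members' rise was not tested.

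Genes whose pattern was most like that of the members were sought by the correlation, over 24 libraries, of log2 CPM with the mean standardized log2 CPM of the 10. Among 12301 genes whose mean normalized count reached 50, the members left out, the closest included Eif2ak2 (r = 0.995), which encodes the double-stranded RNA sensor PKR, Samd9l (0.995), Phf11d (0.994) and Gm6548 (0.994). Irf7 ranked 10 and Irf1 113 (r = 0.949). Pairs of members correlated between 0.84 and 0.99 over all libraries. These r values follow mainly from the 6 WT libraries with rmCIRP against the rest and carry no test.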

How the data were processed

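The 24 total RNA libraries (TruSeq Stranded kit, NextSeq 550) came from mouse pulmonary fibroblasts, grouped by their labels. Alignment by the authors used STAR2 with a GENCODE mouse reference, and the deposited values are raw HTSeq counts per gene symbol, not normalized. The submitters' processing notes name FastQC, HTSeq and the build NCBIM37. The strand option and annotation release were not given in the sources used here. Positions are from GENCODE M21 (GRCm38), whose symbols matched 53292 of 55291 names, and start windows from RefSeq (GRCm38.p6). Sequence from chromosome 18 is not printed.

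The 5 tally lines of unassigned reads (14.5% to 16.1% of each file's sum) were left out. edgeR 4.0.16 in R 4.3.3 (TMM, filterByExpr with conditions as groups, glmQLFit, glmQLFTest) was fitted to all 24 libraries with 1 mean per condition, and p-values were Benjamini-Hochberg adjusted over all 16258 genes tested, with a threshold of 0.1. The SE is the size of the log2 change divided by the square root of F, and 95% intervals are 1.96 SE on either side. The tests covered 12 comparisons. Normalized counts use DESeq2 1.42.0 size factors. Levels between genes are TMM-scaled CPM per kilobase of joined exons. Log2 CPM has a prior count of 2. Scripts were tested on simulated data. Depth intervals cover counting error only.

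The members, gene lists and tests were chosen with earlier results of these data known. Named were the 10 members, examples from the lists, and genes from the 5 most like the members, of which 1 is not reported here. Alternatives were DESeq2, RLE scaling, no filter, a mean count of at least 10, the replicate number as a block, a fit of the compared libraries only, leaving out each library in turn, and counts of Tgtp1 and Tgtp2 summed. No library was left out of the results.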

Additional observations from a re-analysis of the deposited data

Results flagged for a closer look

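The response to rmCIRP differed between the genotypes for each of the 10 members by edgeR's test of the difference itself, both with PBS and with rmTGF-β1 as the baseline. Values are the log2 change in the libraries labelled TLR4-/- minus that in WT. Among the GBPs, the difference was -3.05 for Gbp2, -5.07 for Gbp3, -7.26 for Gbp5 and -4.70 for Gbp7 with PBS as the baseline. With rmTGF-β1 it was -3.24, -5.96, -7.88 and -4.34 for the same genes. Among the regulatory IRG genes it was -2.07 for Irgm1, -3.64 for Irgm2 and -4.54 for Igtp with PBS, and -2.54, -4.33 and -4.64 with rmTGF-β1. Among the effector IRG genes it was -4.92 for Iigp1, -2.27 for Ifi47 and -5.38 for Tgtp2 with PBS, and -7.30, -2.40 and -7.42 with rmTGF-β1. Both comparisons use separate libraries. In the second, the values of Iigp1 and Tgtp2 were -6.10 and -6.22 without labelled TLR4-/- library 2 with rmTGF-β1. All 13 macrophage markers were higher in the libraries labelled TLR4-/- with PBS, and their part in these differences was not tested. Genotype and pool of cells cannot be told apart in these differences.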

How the results depend on the processing

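All 10 members were called, in the same direction, under every alternative and with any library left out, for rmCIRP against PBS and both factors against rmTGF-β1 in WT cells and for both genotype differences in the rmCIRP response. Of the members' log2 changes over all comparisons, 803 kept direction and call under the other fits, 31 gained a call, 4 lost it and 1 changed sign, Tgtp2 in the WT interaction, which was -0.067 with Tgtp1 summed and 0.13 without. The cause of the changes that follow was not tested. For both factors against rmCIRP in WT, the members called went from 5 to 2 with DESeq2. They went to 9 without the filter or with only the compared libraries. All genes called there were 3329, and 2982, 3136 and 4591 under these 3 settings. For rmTGF-β1 in WT, members called went from 0 to 3 with either of the last 2 settings, and all genes called from 2019 to 2173 and 2983. In labelled TLR4-/- libraries, members called without the filter went from 0 to 1 for rmCIRP and to 4 for rmTGF-β1. All genes called for rmTGF-β1 there went from 3884 to 3559. For both factors against rmTGF-β1 there, members called went from 0 to 2 with DESeq2 and to 6 without the filter. For the difference in the rmTGF-β1 response, members called went from 0 to 1 without the filter.

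Of all genes, rmCIRP in labelled TLR4-/- libraries gave 0 calls, 33 with DESeq2, 149 without the filter and 29 with only the compared libraries. Both factors against rmTGF-β1 there gave 437, and 902, 1580 and 0 under the same settings. The difference in the rmTGF-β1 response gave 14, 163 with DESeq2, 563 without the filter and 23 with a mean count of at least 10. The WT interaction gave 8, 37 with DESeq2, 198 without the filter and 125 with only the compared libraries.

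Over all conditions together, replicate numbers showed little pairing of the libraries. The mean correlation of same-numbered deviations was 0.012, against -0.00597 for other numbers, and no comparison had every pair above 0.1. The same-number mean was highest, 0.205 (0.064 to 0.369), between rmTGF-β1 and both factors in labelled TLR4-/- libraries, against -0.101 for other numbers. There, the block moved the genes called from 437 to 810, and the labels do not say whether these libraries were paired. With the replicate number as a block, no member gained or lost a call in these counts (5 remained for both factors against rmCIRP in WT, for example), while all genes called went to 1 for rmCIRP in labelled TLR4-/- libraries and to 22 for the difference in the rmTGF-β1 response.

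With 1 library left out, members called ranged from 1 to 8 for both factors against rmCIRP in WT, from 3 to 6 between genotypes with PBS, and in labelled TLR4-/- libraries from 0 to 2 for both against rmTGF-β1 and from 0 to 1 for rmTGF-β1. All genes called ranged from 1029 to 1690 for rmTGF-β1 in WT (2019 with all libraries), from 2 to 7 for the WT interaction and from 0 to 119 for the difference in the rmTGF-β1 response. In labelled TLR4-/- libraries they ranged from 0 to 9 for rmCIRP, 0 to 2674 for both against rmTGF-β1 (0 without rmTGF-β1 library 1, 1 without library 3 with both) and 2517 to 3783 for rmTGF-β1.

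Leaving out 1 library turned the sign of 56 log2 changes, none of them called. For rmCIRP in labelled TLR4-/- libraries the ranges were -0.050 to 0.35 for Gbp2, -0.25 to 0.66 for Gbp3, -0.91 to 0.12 for Gbp5, -0.30 to 0.026 for Gbp7, -0.11 to 0.19 for Irgm1, -0.26 to 0.31 for Irgm2, -0.20 to 0.22 for Igtp, -1.20 to 1.38 for Iigp1, -0.025 to 0.086 for Ifi47 and -0.91 to 0.81 for Tgtp2. For rmTGF-β1 there they were -0.77 to 0.067 for Gbp5, -0.06 to 0.36 for Irgm1, -0.25 to 0.47 for Irgm2, -0.29 to 0.25 for Igtp, -1.65 to 0.65 for Iigp1, -0.16 to 0.086 for Ifi47 and -0.93 to 0.75 for Tgtp2. For both against rmTGF-β1 there they were -0.44 to 0.080 for Gbp2, -0.11 to 0.15 for Gbp7 and -0.52 to 0.019 for Igtp. For the difference in the rmTGF-β1 response they were -0.054 to 0.46 for Gbp2, -0.014 to 0.40 for Irgm1, -0.047 to 0.67 for Irgm2, -0.24 to 0.29 for Igtp, -0.85 to 1.44 for Iigp1 and -0.23 to 1.46 for Tgtp2. In WT they were -0.073 to 0.31 for Gbp3, -0.14 to 0.15 for Irgm2, -0.23 to 0.21 for Iigp1 and -0.079 to 0.57 for Tgtp2 in the interaction, and -0.13 to 0.14 for Gbp7 and -0.26 to 0.15 for Igtp with rmTGF-β1. Few reads limit Gbp5 and Tgtp2 in WT libraries with PBS, at 18 raw counts or fewer, and Iigp1 and Tgtp2 in some labelled TLR4-/- libraries.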
